A study of Mus musculus with 4 samples.

Results

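A set of 5 genes of lymphocyte egress and of the KLF2 programme, Klf2, Klf3, S1pr1, S1pr4 and S1pr5, was followed in ovalbumin-specific CD8 T cells sorted by flow cytometry from mouse tumours. They were taken by name from the deposited gene tables, where all 5 were found among 14082 listed genes. The cells came from mice of 6 to 10 weeks carrying subcutaneous tumours of E.G7, an ovalbumin-expressing T lymphoma line. Mice of the group labelled WT had the genotype Smad4-fl/fl, and those of the group labelled KO had Cd8-cre Smad4-fl/fl, so both groups carry the floxed allele and differ by a Cre driven from Cd8 regulatory sequence. Each group had 2 libraries of bulk total RNA. Whether the libraries of a group stem from different animals is not said in the labels, so the p-values reflect the spread among these 4 samples only, and that spread may be technical.

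T cells leave lymphoid organs and tissues by following sphingosine-1-phosphate (S1P), a lipid that is abundant in blood and lymph and scarce inside tissue. S1PR1 is the receptor that reads this gradient on T cells, and the zinc finger transcription factor KLF2 drives its gene. T cell receptor signals lower KLF2, and the surface protein CD69 pulls S1PR1 from the membrane, so cells held in tissue typically have low Klf2 and S1pr1. KLF3 is a zinc finger repressor of the same family. S1PR5 is best known for the egress of natural killer cells, where the T-box factor T-bet promotes its expression, and is also found on circulating effector T cells, and S1PR4 is a receptor of haematopoietic cells.

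The promoter windows of Klf2, S1pr5 and S1pr4 are shown. Klf2 is the factor the programme is named for, and S1pr5 was the only member past the test. The proportion of S1pr4 to S1pr5 differed between the groups, as did that of S1pr1, for which no window was found. Each window runs from 250 bases before to 50 bases after the annotated start, from RefSeq on build GRCm38.p6, and is written 5′ to 3′ along the gene's strand. Capitals mark the 5-base motif CACCC, the core of the box that KLF proteins bind, or its complement GGGTG. Klf2 (chr8:72318812-72319111, plus strand), S1pr5 (chr9:21248394-21248693, minus strand) and S1pr4 (chr10:81500088-81500387, minus strand) read as follows.
Klf2: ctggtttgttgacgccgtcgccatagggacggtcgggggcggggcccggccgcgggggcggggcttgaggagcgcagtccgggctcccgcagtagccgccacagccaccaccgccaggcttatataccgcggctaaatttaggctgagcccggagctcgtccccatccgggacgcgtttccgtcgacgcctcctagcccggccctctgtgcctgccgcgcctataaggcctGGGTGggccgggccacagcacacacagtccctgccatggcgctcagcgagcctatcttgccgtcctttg
S1pr5: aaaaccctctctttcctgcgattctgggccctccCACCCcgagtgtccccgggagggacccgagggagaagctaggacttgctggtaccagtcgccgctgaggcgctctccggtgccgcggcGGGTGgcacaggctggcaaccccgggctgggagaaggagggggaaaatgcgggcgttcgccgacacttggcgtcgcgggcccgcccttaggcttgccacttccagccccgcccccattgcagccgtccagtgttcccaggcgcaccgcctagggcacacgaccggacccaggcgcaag
S1pr4: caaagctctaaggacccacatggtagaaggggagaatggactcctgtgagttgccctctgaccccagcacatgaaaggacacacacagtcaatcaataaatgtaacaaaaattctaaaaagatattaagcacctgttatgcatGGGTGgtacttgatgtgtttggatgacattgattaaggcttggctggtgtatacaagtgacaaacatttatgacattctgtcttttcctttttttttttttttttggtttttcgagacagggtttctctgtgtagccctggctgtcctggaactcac

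Windows were found for 4 of the 5 members, and S1pr1 had no entry. CACCC or its complement occurred 1 time in the windows of Klf2 and S1pr4, 2 times in that of S1pr5 and 5 times in that of Klf3, and 57.5% of 32841 promoter windows of this length hold it. CAGAC or GTCTG, a box that SMAD proteins can bind, was present in the Klf3 window and absent from the other 3, against 49.6% of all windows. The FOXO motif TGTTTAC (either strand) was in none of the 4 windows and in 3.65% of all, and the T-box motif AGGTGTGA (either strand) was in none of the 4 and in 1.28% of all. The 4 motifs are different letter strings, and no CAGAC match fell in the 3 windows printed. Base composition of the windows differed, with 69.3% G and C for Klf2 and for S1pr5 and 41.0% for S1pr4. These matches describe letters and locate no binding.

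Summed counts ran from 24366540 to 26218277 over the 4 libraries, and mitochondrial genes took 10.2% and 10.4% of them in WT and 6.57% and 6.99% in KO. Smad4 itself was not lower in the libraries labelled KO, with 31.7 and 29.4 CPM (counts scaled to library size with TMM factors) in WT and 29.3 and 40.3 CPM in KO (log2 fold change 0.19, edgeR adjusted p = 0.397). The counts are per gene, and Smad4 exons were not analysed separately here. Directions below are between libraries labelled KO and WT. CD8 T cell markers were abundant, with 8 of 8 listed and a summed level of 2413 and 2439 CPM in WT and 1604 and 1615 CPM in KO. Beside Cd8a and Cd8b1 this list holds genes of T cells in general, such as Cd3e. In the CD4 T cell list 1 gene was higher, 0 lower and 3 not called. The higher one, Cd4, was at 26.9 and 32.2 CPM in WT and 63.1 and 67.7 CPM in KO (edgeR adjusted p = 7.42e-06). The part of other T cells or of the T lymphoma in the CD8 T cell sum was not tested. Markers of macrophages and monocytes were higher than the CD8 T cell list in every library, at 17763 to 18687 CPM over 11 of 11 genes. Transcripts of another cell class were thus present beside those of the labelled T cells. Neutrophil markers, 12 of 12 listed, summed to 1388 to 1435 CPM in WT and 2924 to 3089 CPM in KO. The highest of them in KO were Cxcl2 (611 and 752 CPM), S100a8 (641 and 647 CPM) and S100a9 (472 and 473 CPM). Ly6g, also on this list, was at 0.338 to 0.704 CPM over the 4 libraries and did not pass (edgeR adjusted p = 0.809). Whether neutrophils were more numerous in KO was not tested. In bulk RNA, fewer cells of a type and less RNA per cell cannot be told apart.

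**Figure D1:**
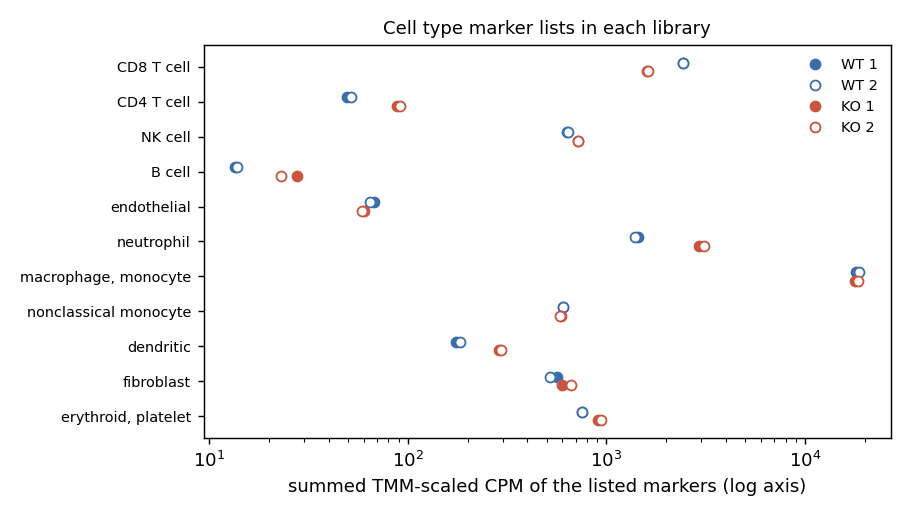
Summed TMM-scaled CPM of each cell type marker list (horizontal log axis) in the 4 libraries, with WT in blue, KO in red, replicate 1 filled and replicate 2 open. CD8 T cell markers were lower and neutrophil markers higher in both KO libraries, while macrophage and monocyte markers lay between 17763 and 18687 CPM in all 4.

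The comparison of KO with WT asked how these genes differ with the Smad4 genotype label. Of the 5 members, S1pr5 was higher in the libraries labelled KO, and Klf2, Klf3, S1pr1 and S1pr4 did not pass the test. That is 1 of 5 called, or 20.0%, beside 21.2% of 13358 tested genes (edgeR quasi-likelihood, adjusted p under 0.05 by Benjamini-Hochberg over all genes), so the members' share was near the background. In that background 10.1% were called higher and 11.0% lower. None of the 5 was called lower by edgeR, DESeq2 or limma-voom, and 0 were lower at an unadjusted p under 0.05 (edgeR). S1pr4 lay just outside that limit, at an unadjusted p of 0.0546 (edgeR). Of the 13358 genes tested, 2166 were higher and 2200 lower at that limit. The unadjusted counts given here and below are to be read against these, and 0 of 5 members is too few to show that none fell. The members' median log2 fold change was 0.13, against -0.0037 over all genes tested. All 5 passed the filter on low counts, and none had fewer than 456 counts in any library.

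**Figure D2:**
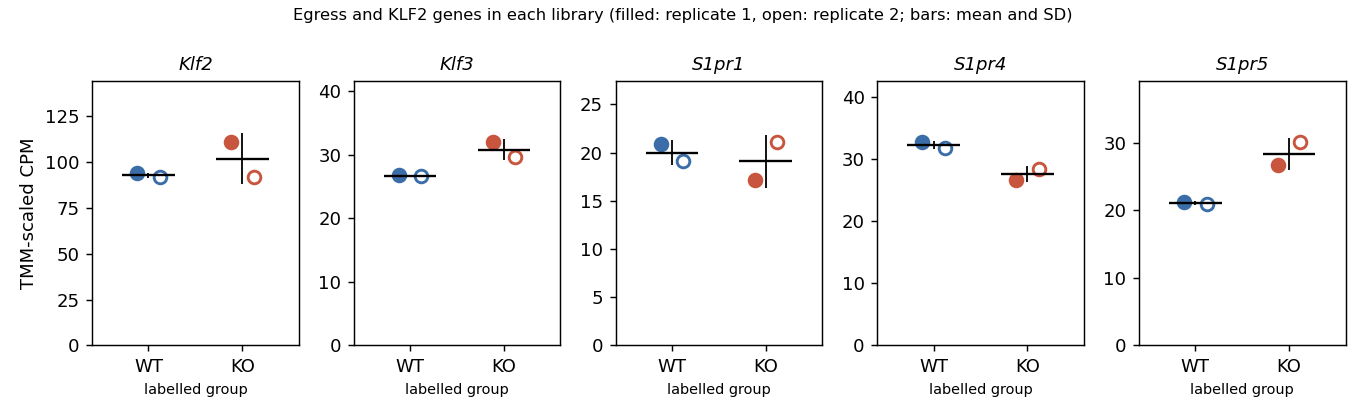
TMM-scaled CPM (vertical axes from 0) of the 5 members in each library, by labelled group, with horizontal bars at the group mean and vertical bars of 1 SD (n = 2). Both KO points lie above both WT points for Klf3 and S1pr5 and below them for S1pr4, while the groups overlap for Klf2 and S1pr1.

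S1pr5, the receptor of natural killer and effector cell egress, was measured at 21.2 and 20.9 CPM in WT and at 26.7 and 30.1 CPM in KO. The WT libraries lay close together, and both KO libraries were above them. Its level was 1.35-fold higher in KO (log2 fold change 0.43, standard error 0.12, 95% confidence interval 0.17 to 0.69, edgeR adjusted p = 0.0236; 21.1 ± 0.244 and 28.4 ± 2.37 CPM, SD, n = 2 each). DESeq2 and limma-voom gave adjusted p-values of 0.0320 and 0.0269. The call was lost without WT replicate 1, WT replicate 2 or KO replicate 2 (edgeR adjusted p = 0.122, 0.130 and 0.0710, with log2 fold changes of 0.44, 0.42 and 0.34) and not without KO replicate 1 (0.51, adjusted p = 0.00260). The gene lies on chromosome 9 from 21242912 to 21248443 (mm10, minus strand, protein coding). An unlisted gene model, Gm48303, overlaps its exons on the opposite strand, and since no source used here gives the strandedness, the value is uncertain to that extent. Natural killer cells can carry S1pr5. Of the markers that define them, Ncr1 was at 0 to 0.704 CPM and Klrb1c at 0.593 to 1.05 CPM over the 4 libraries, and the part of these cells in the S1pr5 value was not tested. In the natural killer list 5 of 7 genes were listed, summing to 635 and 641 CPM in WT and 723 and 718 CPM in KO, nearly all of it Tyrobp, which myeloid cells also express. Nonclassical monocytes carry S1pr5 as well. Their 6 of 6 listed markers summed to 606 CPM in both WT libraries and to 589 and 584 CPM in KO, most of it Nr4a1, a gene that T cell receptor signals also induce, at 489 in both WT libraries and 497 and 500.1 CPM in KO. Of the 6, 3 were lower (Spn, Cd300e and Pou2f2) and 0 higher, with a median log2 fold change of -0.42. At an unadjusted p under 0.05 (edgeR) 3 were lower and 1 higher. The higher one, Treml4, was at 6.75 and 12.8 CPM in WT and 15.4 and 13.6 CPM in KO. Its log2 fold change was 0.57 (edgeR adjusted p = 0.127), so the list did not move in one direction. The part of these cells in the S1pr5 value was not tested.

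S1pr4, the receptor of haematopoietic cells, stood at 32.8 and 31.9 CPM in WT and at 26.6 and 28.5 CPM in KO. Both KO libraries were below both WT libraries, but the difference did not pass (log2 fold change -0.23, standard error 0.11, 95% confidence interval -0.47 to 0.0053, edgeR adjusted p = 0.163). Leaving out any library kept the log2 value between -0.28 and -0.18, with no call. Groups without overlap in this direction were common: 30.0% of all genes tested had both KO libraries below both WT libraries, and 29.7% had both above. By this measure 2 members (Klf3 and S1pr5) were above and 1 was below. S1pr4 is on chromosome 10 from 81497747 to 81500132 (minus strand, protein coding, no overlapping exon).

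S1pr1, the main egress receptor of T cells, was at 20.9 and 19.1 CPM in WT and at 17.2 and 21.1 CPM in KO. The lowest and the highest of the 4 values were the libraries labelled KO, so the groups overlapped fully. No difference passed (log2 fold change -0.064, edgeR adjusted p = 0.811), and the 95% confidence interval spanned 0.771 to 1.19 times the WT level. The sign rested on single libraries, being 0.077 without KO replicate 1 and -0.22 without KO replicate 2 on the log2 scale, and it was 0.021 with library totals alone as the scaling. S1pr1 lies on chromosome 3 from 115710433 to 115715072 (minus strand, protein coding). Endothelial cells express S1pr1 and Klf2 strongly. Their 10 of 10 listed markers summed to 67.3 and 64.9 CPM in WT and 60.0 and 59.0 CPM in KO, most of it Pecam1 (36.2 to 43.7 CPM), while Cdh5, which defines them, was at 2.84 to 5.45 CPM. Neither passed the test, and of all 10 markers 4 were lower (Kdr, Tek, Emcn and Vwf) and 0 higher, with a median log2 fold change of -0.75. The part of endothelial RNA in these values was not tested.

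Klf2 was at 93.9 and 92.0 CPM in WT and at 111 and 91.7 CPM in KO. KO replicate 1 was the highest of the 4 and KO replicate 2 the lowest, and the WT libraries lay between them. The difference did not pass (log2 fold change 0.13, edgeR adjusted p = 0.341), with a 95% confidence interval of 0.959 to 1.25 times the WT level. Which KO library was kept decided the result, since the log2 fold change was 0.26 and called without KO replicate 2 (edgeR adjusted p = 0.0140) and -0.019 without KO replicate 1 (adjusted p = 0.914). In KO replicate 1, where Klf2 was highest, S1pr1 was lowest, and the count of Klf2 was 6.50 times that of S1pr1 against 4.35 times in KO replicate 2 and 4.49 and 4.82 times in WT. The high ratio was in KO replicate 1 alone, neither gene passed the test, and the ratio is given without a test. Klf2 lies on chromosome 8 from 72319033 to 72321656 (plus strand, protein coding, no overlapping exon).

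Klf3, the repressor of the family, had 26.8 and 26.7 CPM in WT and 32.0 and 29.6 CPM in KO. Both KO libraries exceeded both WT libraries by a small margin. No call was made (log2 fold change 0.20, standard error 0.11, edgeR adjusted p = 0.229), and the interval ran from 0.974 to 1.36 times the WT level. The gene is on chromosome 5 from 64803388 to 64832901 (plus strand, protein coding), and its exons overlap the unlisted transcript Gm20033 on the opposite strand.

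**Figure D3:**
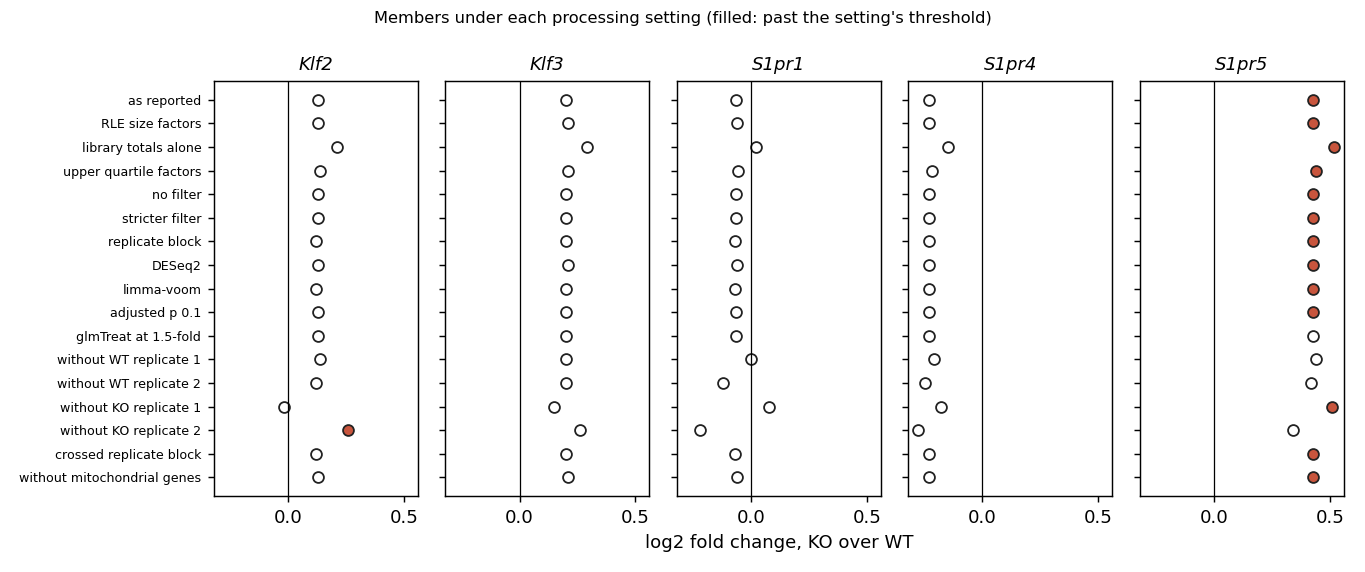
Log2 fold change, KO over WT (horizontal axis), of each member under each processing setting (rows), filled where the setting's threshold was passed. S1pr5 stays right of 0 in all rows and loses its filling with a 1.5-fold threshold and without WT replicate 1, WT replicate 2 or KO replicate 2, while Klf2 and S1pr1 move to either side of 0.

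Levels were compared between genes per length, using the deposited FPKM (a count scaled to gene length and library size). Klf2 was by far the most abundant member, at 48.9 and 48.0 FPKM in WT and 58.5 and 48.0 FPKM in KO. By FPKM it exceeded Klf3, the lowest member on this scale at 2.29 to 2.76 FPKM, by 18.9 to 21.3 times within a library. That gap depends on the gene length used. In GENCODE M21 the exons of Klf3, merged over 9 transcripts, span 11243 bases, and those of Klf2 span 1847 bases. In CPM, which is not scaled to length, Klf3 (26.8 and 26.7 in WT) was above S1pr1 (20.9 and 19.1) and S1pr5 (21.2 and 20.9). In WT, S1pr4 was the leading S1P receptor by FPKM (13.2 and 12.9 FPKM), followed by S1pr5 (8.16 and 8.06 FPKM) and S1pr1 (6.59 and 6.04 FPKM). S1pr2, which signals mostly through other G proteins than S1PR1, had 4.70 and 5.22 FPKM, and S1pr3 had 0.691 and 1.17 FPKM. None of these FPKM levels overlapped with its neighbour in the WT order. That order depends on the gene length used as well. In CPM, S1pr2 was above the other S1P receptor genes in every library, at 39.0 and 43.2 in WT and 44.5 and 44.1 in KO. Its merged exons span 7971 bases, against 2386 for S1pr4. In KO, S1pr4 (10.8 and 11.5 FPKM) and S1pr5 (10.4 and 11.6 FPKM) overlapped. S1pr1 (5.46 and 6.69 FPKM) lay above S1pr2 (5.42 and 5.35 FPKM) there, and KO replicate 1 had nearly the same level of both.

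The proportions among the receptor genes differed between the groups more than their sum. The summed FPKM of the 5 S1P receptor genes was 33.4 in both WT libraries and 33.2 and 36.3 in KO. This sum and the shares of it depend on the gene lengths behind FPKM. S1pr5 took 24.5% and 24.1% of that sum in WT and 31.2% and 32.0% in KO. For S1pr4 the shares were 39.6% and 38.6% in WT and 32.6% and 31.8% in KO. S1pr1 held 19.8% and 18.1% in WT and 16.4% and 18.4% in KO, with overlap between the groups. The ratio of S1pr5 to S1pr4 counts, which no scaling of libraries changes, was 0.647 and 0.654 in WT and 1.00 and 1.05 in KO. The FPKM ratio of S1pr5 to S1pr1 also differed without overlap, at 1.24 and 1.33 in WT and 1.90 and 1.74 in KO. Both ratios were chosen after the values were seen and are given without a test. Neither S1pr2 (log2 fold change 0.11) nor S1pr3 (0.27) passed the test (edgeR adjusted p = 0.481 and 0.579).

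**Figure D4:**
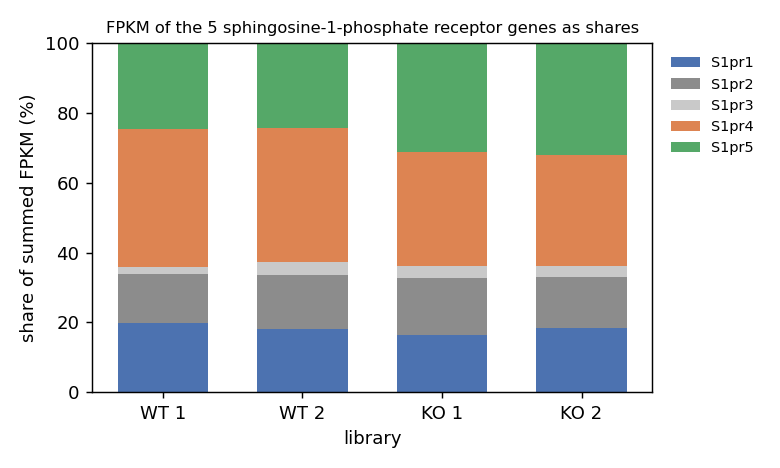
Share of the summed FPKM of the 5 S1P receptor genes (vertical axis, percent) held by each gene in the 4 libraries. The shares depend on the gene lengths behind FPKM. S1pr5 takes 24.1% to 24.5% in the WT libraries and 31.2% to 32.0% in the KO libraries, and S1pr4 takes less in KO.

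Genes known to depend on KLF2 or to share its homing role went in opposite directions. Ccr7, the chemokine receptor that guides cells into lymph nodes, was at 1036 and 1035 CPM in WT and 708 and 702 CPM in KO, 1.47-fold lower (edgeR adjusted p = 6.57e-06). The groups did not overlap, and the difference was far wider than the spread within either. Dendritic cell markers, 6 of 6 listed, summed to 176 and 184 CPM in WT and 288 and 295 CPM in KO. Of these markers 2 were higher, 1 lower and 3 not called. The part of dendritic cells in the Ccr7 value was not tested. Itgb7, an integrin chain of gut homing, was 1.18-fold higher (edgeR adjusted p = 0.0332), a call lost without WT replicate 1, WT replicate 2 or KO replicate 1 (edgeR adjusted p = 0.0688, 0.229 and 0.121). Il7r, the interleukin-7 receptor gene, did not pass (44.0 to 54.6 CPM, edgeR adjusted p = 0.553). Of these 3 genes 1 was higher and 1 lower, with a median of 0.11.

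Among 17 listed regulators of KLF2 or of S1P receptor genes, 1 was higher, 5 were lower and 11 did not pass, with a median of -0.15. These are 5.88% higher and 29.4% lower, beside 10.1% and 11.0% over all genes tested, the shares against which the lists that follow are to be read too. Tbx21, which encodes T-bet, was at 50.2 and 47.4 CPM in WT and at 21.7 and 31.2 CPM in KO, 1.84-fold lower (edgeR adjusted p = 8.37e-04), in the libraries in which S1pr5 was higher. Stat3, a signal transducer that can raise S1pr1, was 1.72-fold lower (891 and 863 against 521 and 502 CPM, edgeR adjusted p = 4.94e-07), though its exons overlap Stat5a on the opposite strand. Pik3cd, the PI3 kinase catalytic subunit of leukocytes whose signal lowers KLF2 through FOXO1, was 1.33-fold lower (edgeR adjusted p = 0.00156). Foxo3 was 1.39-fold higher, at 20.1 and 20.6 CPM in WT and 29.0 and 27.5 CPM in KO (edgeR adjusted p = 0.0125), a call that ended when WT replicate 1 (edgeR adjusted p = 0.102) or WT replicate 2 (0.0671) was left out. Foxo1, the FOXO factor that drives Klf2, was 1.27-fold lower (38.0 and 38.3 against 29.7 and 30.6 CPM, edgeR adjusted p = 0.0325), and Zeb2, a repressor that acts with T-bet, was 1.17-fold lower (edgeR adjusted p = 0.0263); these were named after their values were seen. Mef2d and Akt2 did not pass (edgeR adjusted p = 0.729 and 0.0742). There were 2 higher and 3 lower with library totals alone, and 0 higher with 3 or 4 lower when WT replicate 1 or 2 was dropped.

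Retention and residency genes changed both ways. Of 9 tested, 3 were higher (33.3%) and 4 lower (44.4%), with a median of -0.24. Cxcr6, a chemokine receptor of tissue T cells, was 1.94-fold lower (384 and 396 against 220.4 and 183 CPM, edgeR adjusted p = 2.28e-06). Prdm1, the transcription factor Blimp-1, was 1.55-fold lower (50.6 and 47.7 against 31.1 and 32.4 CPM, edgeR adjusted p = 5.93e-04). Rgs1 and Rgs2, regulators that damp G protein signals, were 1.44-fold and 1.20-fold lower (edgeR adjusted p = 1.74e-05 and 0.00331). The 3 that were higher, named after their values were seen, were Cd69, Itgae and Itga1, and with limma-voom 2 of the list were higher. Cd69, the antagonist of S1PR1 at the membrane, was at 108 and 115 CPM in WT and 143 and 128 CPM in KO (1.22-fold, edgeR adjusted p = 0.0131). Itgae and Itga1, integrin chains of resident T cells, were 1.77-fold and 2.11-fold higher (edgeR adjusted p = 0.0298 and 0.0139), from levels of 5.76 to 6.37 and 3.08 to 4.22 CPM in WT; Itga1 shares exon sequence with the unlisted model Gm49395. Runx3 and Zfp683, which encodes the residency factor Hobit, did not pass (edgeR adjusted p = 0.0687 and 0.625), and Zfp683 was under 1 CPM in every library. Higher members numbered 1 without WT replicate 1 or without WT replicate 2.

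The signalling and desensitisation genes that act below S1P and chemokine receptors were lower or did not pass. Of 16 tested, 0 were higher, 6 lower (37.5%) and 10 not called, with a median of -0.16. The count of higher genes was also 0 at an unadjusted p under 0.05 (edgeR) and with DESeq2 and limma-voom. Dock2, the activator of RAC in lymphocyte migration, was 1.45-fold lower (255 and 267 against 177 and 182 CPM, edgeR adjusted p = 2.48e-05). Rac2, the leukocyte RAC GTPase, was 1.19-fold lower (849 and 848 against 709 and 711 CPM, edgeR adjusted p = 0.00290). Grk6, a kinase that desensitises G protein-coupled receptors, was 1.37-fold lower (58.4 and 62.2 against 46.6 and 41.4 CPM, edgeR adjusted p = 0.00405). Coro1a, an actin regulator needed for naive T cell egress, was 1.22-fold lower (edgeR adjusted p = 0.00301), and it overlaps Bola2 on the opposite strand. The other lower genes, outside the naming rule, were Grk2, the kinase that internalises S1PR1 (1.22-fold, edgeR adjusted p = 0.0100), and Rhoa (1.17-fold, adjusted p = 0.0210), which overlaps Tcta. Gnai3 and Rac1 did not pass (edgeR adjusted p = 0.907 and 0.0566), and Rac1 overlaps Daglb. Library totals alone as the scaling left 4 lower and 0 higher.

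Enzymes and carriers that make, break and move S1P and its ceramide precursor mostly did not pass. Of 18 tested, 0 were higher, 2 lower (11.1%) and 16 not called, with a median of -0.13 (2 higher at an unadjusted p under 0.05, edgeR; 0 with DESeq2 and limma-voom; 2 higher and 1 lower with library totals alone). Cers6, a ceramide synthase, was 1.29-fold lower (69.3 and 61.4 against 46.9 and 54.4 CPM, edgeR adjusted p = 0.0182), but did not pass without WT replicate 1 (adjusted p = 0.177). In the whole list 0 were lower without WT replicate 1, 1 without WT replicate 2 or KO replicate 2, and 2 were higher and 4 lower without KO replicate 1. Asah2, a ceramidase, was 2.35-fold lower at 4.14 and 4.04 against 2.14 and 1.33 CPM (edgeR adjusted p = 0.0276), and is named outside the rule. Sgpl1, the lyase that degrades S1P, stood at 242 to 264 CPM over the libraries and did not pass (edgeR adjusted p = 0.383). Cers2, which overlaps Setdb1, did not pass either (adjusted p = 0.860).

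Of 11 other KLF family genes tested, 0 were higher, 3 lower (27.3%) and 8 not called, with a median of -0.21 (1 higher at an unadjusted p under 0.05, edgeR; 0 with DESeq2 and limma-voom; 1 higher and 5 lower without KO replicate 1). Klf4, which like KLF2 restrains proliferation in T cells, was 1.36-fold lower (58.2 and 61.9 against 47.5 and 41.0 CPM, edgeR adjusted p = 0.00624). Klf6 and Klf10, both zinc finger factors of the family, were 1.13-fold and 1.15-fold lower (edgeR adjusted p = 0.0367 and 0.0366). Klf6 lost its call without WT replicate 2, KO replicate 1 or KO replicate 2 (edgeR adjusted p = 0.362, 0.0619 and 0.0935), and Klf10 without WT replicate 1, WT replicate 2 or KO replicate 2 (0.0639, 0.267 and 0.143). With library totals alone Klf4 was the only call among the 3 (edgeR adjusted p = 0.251 for Klf6 and 0.196 for Klf10). Klf11 and Klf13 did not pass (edgeR adjusted p = 0.777 and 0.321). Over all 7 lists outside the members, 76 genes were tested, of which 5 were higher (6.58%) and 21 lower (27.6%), beside 10.1% and 11.0% of all genes tested, with a median of -0.15 against -0.0037 over all genes. CD8 T cell markers, of which 5 of 8 were lower with a median of -0.65, and neutrophil markers, of which 11 of 12 were higher, moved in the same libraries, and their part in these counts was not tested.

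**Figure D5:**
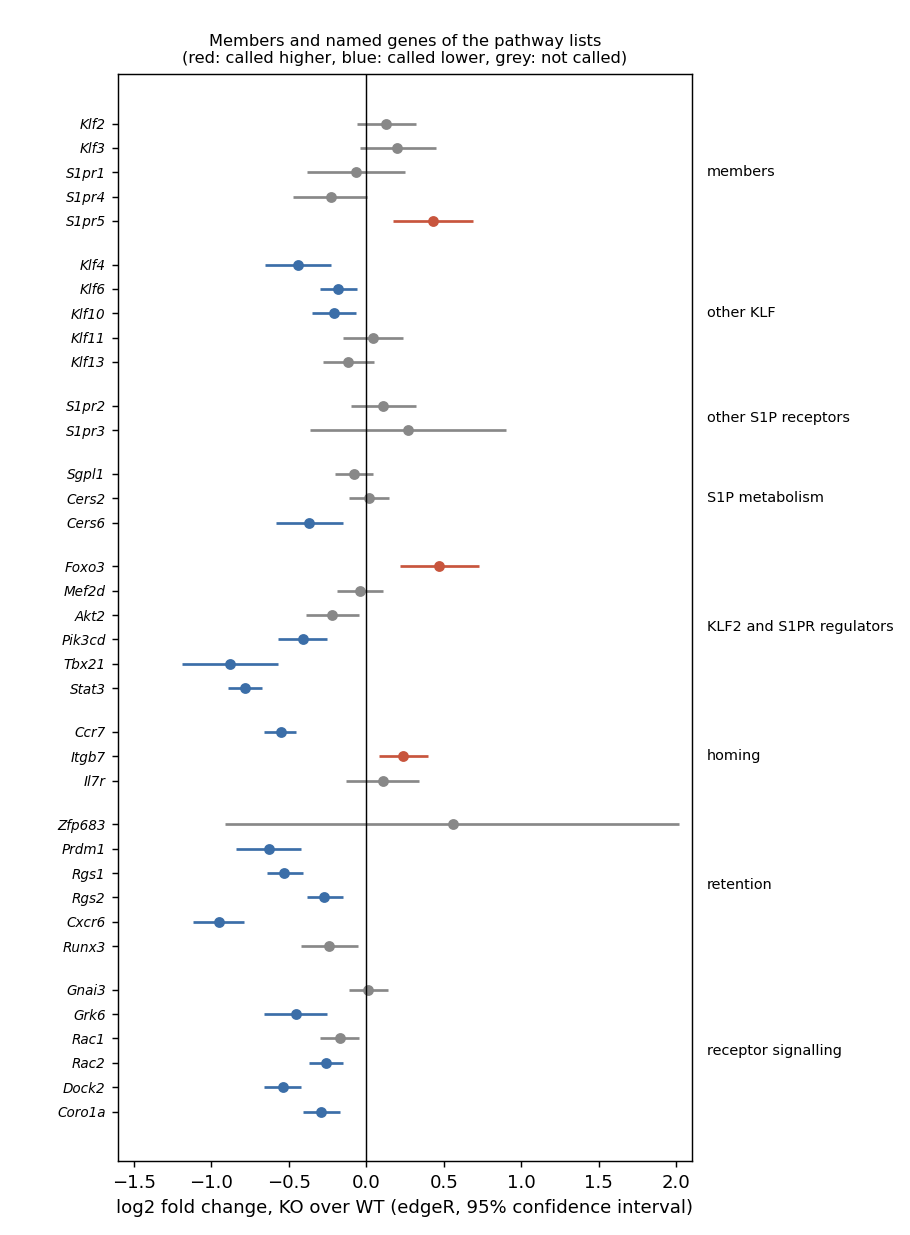
Log2 fold change, KO over WT, with its 95% confidence interval (horizontal axis) for the members and the genes named by rule from each list (rows), in red where called higher, blue where called lower and grey where not called. S1pr5, at 0.43, is the only red member, and Ccr7 is at -0.55.

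The genes with profiles nearest to the members were sought among genes with a mean of at least 5 CPM, by the distance between log2 CPM profiles over the 4 libraries, each centred on its WT mean. Nearest to S1pr5 were Sh2d3c (26.0 and 25.1 against 32.7 and 35.9 CPM, distance 0.0316) and Tmem70 (distance 0.0385). For Klf2 they were Pex6 (distance 0.00790) and Gpt (0.0231), and for Klf3 Rcl1 (0.0176) and Galk1 (0.0180). For S1pr1 they were Retreg3 (0.0170) and Furin (0.0403), and for S1pr4 Paxbp1 (0.0198) and S100a6 (0.0217). With 4 libraries such likeness is easily found among the genes tested and is given as a description.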

How the data were processed

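RNA of 4 sorted samples, 2 labelled WT and 2 labelled KO, was sequenced in bulk. The deposited count column, so named per the file headers, holds whole numbers, and every listed gene had at least 20 counts in total. FPKM, a second deposited column, served only to compare levels between genes and entered no test. Per the submitters' processing notes, the build was mm10 and featureCounts and Bowtie2 are named with Trim Galore 0.4.4, DESeq2 and edgeR; roles and order are not listed. No source used here gives the annotation, strandedness or counting settings.

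The test was edgeR 4.0.16 (R 4.3.3) on the counts: filterByExpr (count minimum 10, total minimum 15), which left 13358 genes, TMM factors, then robust glmQLFit and glmQLFTest, with Benjamini-Hochberg adjustment over all of them and calls under 0.05. The step was also run on simulated counts, with a spread common to all genes and changes of 1.5-fold or more. That run does not bear on smaller changes, such as that of S1pr5. Alternatives were other scalings and filters, the replicate number as a block, each library left out, DESeq2 1.42.0, limma-voom (limma 3.58.1), an adjusted p of 0.1 and a 1.5-fold threshold. Crossing the replicate numbers and leaving out mitochondrial genes were chosen after seeing the data. Libraries of the same group were further apart than sampling of reads gives (chi-square per degree of freedom 8.16 for WT and 10.5 for KO) and were kept as separate replicates. Positions are from GENCODE M21, an annotation of the same assembly (GRCm38), counted from 1.

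The members and lists were chosen with earlier results of these data known, and 1 gene of the lists is not reported here. Genes named are Smad4, the members, up to 4 called genes by lowest p (mean CPM 5 or more) and up to 2 uncalled genes by highest level in each list, and the 2 nearest profiles per member, with pseudocount 0.5 on the log2 scale.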

Additional observations from a re-analysis of the deposited data

How the results depend on the processing

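S1pr5 kept its upward direction in all 16 alternatives and its call in 12, Klf3 and S1pr4 kept direction and stayed uncalled in all 16, and Klf2 and S1pr1 did so in 14 each. Some of these outcomes were fixed in advance. The adjusted p of 0.1 and the 1.5-fold threshold keep the fold changes as reported, so no direction could change there. At an adjusted p of 0.1 S1pr5 could not lose its call, and the outcome of the other members followed from their reported adjusted p-values. The 1.5-fold threshold is stricter than the reported test, so uncalled members were bound to stay uncalled there. Leaving out 1 library at a time gave log2 fold changes of 0.34 to 0.51 for S1pr5, -0.019 to 0.26 for Klf2 and -0.22 to 0.077 for S1pr1. Members called then numbered 0 to 1, and the 1 called without KO replicate 2 was Klf2 in place of S1pr5. Over all genes these fits gave 714 to 1605 higher and 831 to 1787 lower, against 1354 and 1472 with all libraries, and 1 to 6 other pathway genes higher, against 5. With library totals alone 2105 of all genes and 8 of the other pathway genes were higher, and the log2 fold changes of S1pr1 (0.021), Sgpl1 (0.0093) and Mef2d (0.043) changed sign. An adjusted p of 0.1 gave 9 other pathway genes higher. A 1.5-fold threshold (glmTreat) left 148 genes higher and 211 lower, 0 members, and 0 higher and 2 lower of the other pathway genes, with S1pr5 at 0.43 no longer called. Small values changed sign when a library was left out: Klf11 (-0.028 to 0.12), S1pr3 (-0.061 to 0.70), Cers2 (-0.042 to 0.083), Mef2d (-0.10 to 0.024), Il7r (-0.053 to 0.25) and Gnai3 (-0.036 to 0.060). The cause of these changes was not tested. With the replicate number as a block, 1393 genes were higher and 1522 lower and S1pr5 stayed called (log2 fold change 0.43, edgeR adjusted p = 0.0120), while Klf6 and Klf10 lost their calls (adjusted p = 0.114 and 0.0628). Same-numbered libraries did not deviate together (correlation -0.105 over genes), and with the replicate numbers crossed the block gave 1673 and 1770. With 2 libraries a group, missing the threshold does not show that Klf2, Klf3, S1pr1 or S1pr4 had the same level in both groups.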
